A study of Mus musculus with 2 samples.

Results

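The angiopoietin axis was read as 7 genes, Angpt1, Angpt2, Tek, Tie1, Angptl2, Angptl4 and Angptl6, chosen by name, and all 7 were listed for both libraries. Their raw counts of unique molecular identifiers (UMIs, each marking 1 captured RNA molecule) were taken from small B16F10 melanomas, tumours of a mouse melanoma cell line grown under the skin. The hosts were Rosa26::CreERT2 mice that carried either intact Atf4 (Atf4 WT/WT) or floxed Atf4 deleted by tamoxifen given orally (Atf4 Δ/Δ), with a host age of 11 weeks in the labels. Atf4 encodes the transcription factor that carries the integrated stress response. Cre was driven from Rosa26 throughout the host, so that deletion was not confined to 1 cell type, and the injected melanoma cells kept their own Atf4. In the labels each genotype is 1 library that pooled male and female mice, and 2 tumours entered each, so no genotype difference could be tested over replicates. Every interval given here is a 95% interval for counting error alone, and paired values are given with Atf4 WT/WT first.

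Angiopoietins are secreted ligands of the endothelial receptor tyrosine kinase Tie2, which Tek encodes. Angiopoietin-1, made mostly by mural and other mesenchymal cells, activates Tie2 and steadies vessels, whereas angiopoietin-2, stored and released by endothelial cells themselves, opposes or replaces it and is known as a mark of vessels under remodelling. Tie1 encodes a related receptor that pairs with Tie2. The angiopoietin-like proteins share the fold of the angiopoietins but do not bind Tie2: ANGPTL4 inhibits lipoprotein lipase and is induced by fatty acids and hypoxia, ANGPTL2 is a secreted inflammatory factor, and ANGPTL6 is best known from liver.

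In GENCODE vM21 (GRCm38) Tek (ENSMUSG00000006386) lies on the plus strand at chr4:94739289-94874976 and Tie1 (ENSMUSG00000033191) on the minus strand at chr4:118471191-118490061. Angpt1 (ENSMUSG00000022309) lies on the minus strand at chr15:42424723-42676977, Angpt2 (ENSMUSG00000031465) on the minus strand at chr8:18690263-18741562 and Angptl2 (ENSMUSG00000004105) on the plus strand at chr2:33216069-33247717. Angptl4 (ENSMUSG00000002289) lies on the minus strand at chr17:33773750-33781830 and Angptl6 (ENSMUSG00000038742) on the minus strand at chr9:20873808-20879727. All 7 are annotated as protein coding, and all 7 identifiers are in the deposited tables. Angpt2 is overlapped on the opposite strand by Mcph1, Angptl2 by Ralgps1, Angptl6 by A230050P20Rik and Angpt1 by Gm17473. The 3′ libraries keep the strand of the RNA, and the overlapping genes are listed separately.

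Cells were assigned by markers that included none of the 7 genes. Of 3861 cells kept from Atf4 WT/WT and 3557 from Atf4 Δ/Δ tumours, 62 and 23 were endothelial, 4 and 7 mural, 188 and 221 fibroblasts, 1390 and 1014 myeloid and 1751 and 1880 melanoma cells. Endothelial cells made up 1.61% (1.23 to 2.05) and 0.647% (0.41 to 0.969) of the kept cells. A further 10 and 5 cells passed both the endothelial and the mural gate, fell with the endothelial cells on clustering and are given apart. The mural class was too small for its levels to be read closely. Markers held out of the gates followed the classes: endothelial markers such as Vwf and Erg summed to 1597 and 1966 CPM (UMIs of a gene over all UMIs of the class, on the usual counts per 1000000 scale) in endothelial cells and to 11.3 and 6.58 CPM in myeloid cells. Fibroblast, myeloid and melanoma markers held out of the gates were likewise highest in their own class, and mural ones were highest in the mural class at 1215 and 2117 CPM. That class also carried fibroblast markers, at 1663 and 2117 CPM for those held out, and at 19188 and 12342 CPM for those of the fibroblast gate against 2686 and 3822 CPM for those of the mural gate. Its name therefore says only that its cells passed the mural gate.

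The libraries held 38417113 and 38290024 UMIs and shared 10 barcodes, of which 1 was kept. Atf4 had 46 and 0 UMIs in endothelial cells, 182 and 34 in fibroblasts, 556 and 85 in myeloid cells and 4455 and 4200 in melanoma cells, so the host cells of the Atf4 Δ/Δ library held less of the targeted transcript and the tumour cells held 227 and 208 CPM. Although both libraries are labelled as pools of male and female mice, no Y-linked UMI was found in any class of the Atf4 WT/WT library, against 8 in endothelial cells, 68 in fibroblasts and 166 in myeloid cells of the Atf4 Δ/Δ library. Host sex therefore differed with genotype, and values for Xist-only cells (those with a UMI of Xist, the transcript of the inactive X, and none from a Y-linked gene) and for Y-only cells (the reverse) are given where they bear on a result. Red cell RNA, the sum of 4 haemoglobin genes, was 476 and 0 CPM in fibroblasts and 1646 and 0.94 CPM in myeloid cells. Its part in the results below was not tested. With 1 library per genotype, the effects of genotype, host sex and library cannot be told apart.

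Most of the 7 genes had a class of their own, as the plot of levels by class shows. Tek and Tie1 were highest in endothelial cells, Angpt1 in fibroblasts, Angptl4 in fibroblasts followed by endothelial cells, and Angptl2 in fibroblasts and the few mural cells. Angpt2 had its highest level in endothelial cells, yet melanoma cells, 45.4% and 52.9% of the kept cells, held 74.9% and 77.7% of its UMIs. Melanoma cells also held 19666432 of the 25239673 and 20218130 of the 25278535 UMIs of all kept cells. Angptl6 was a low transcript of melanoma and myeloid cells.

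**Figure D1:**
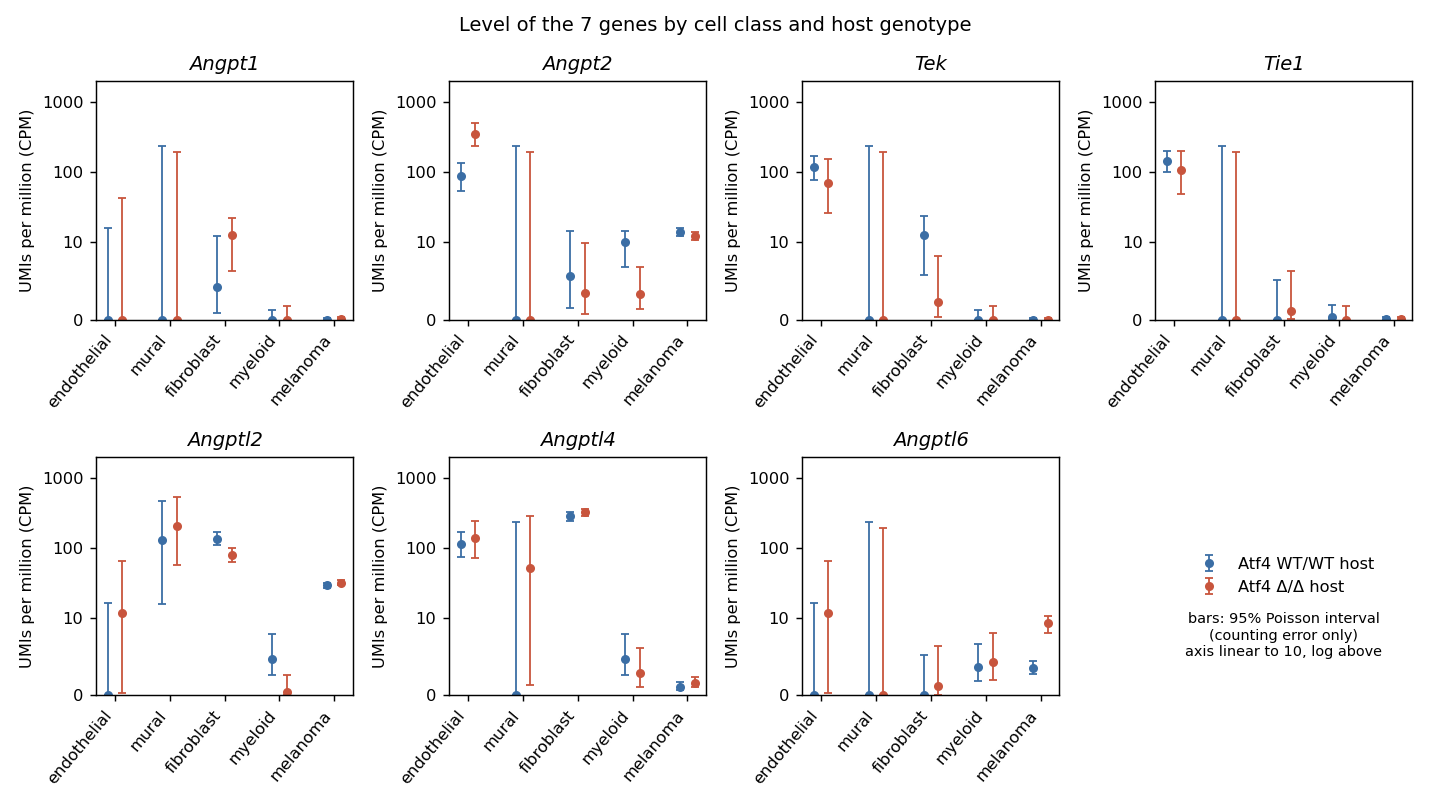
Level of each gene in CPM (vertical axis, linear to 10 and logarithmic above) by cell class, with 1 point for each library and bars for the 95% Poisson interval. Tie1 is all but restricted to endothelial cells (143 and 105 CPM), Angptl4 is highest in fibroblasts (279.9 and 320.5 CPM), and the mural points rest on 4 and 7 cells.

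The receptors were considered first. Tek had 27 UMIs in 20 of the 62 endothelial cells of Atf4 WT/WT hosts and 6 UMIs in 6 of the 23 of Atf4 Δ/Δ hosts. These are levels of 117 CPM (77 to 170.0) and 69.8 CPM (25.6 to 152), a log2 ratio of Atf4 Δ/Δ over Atf4 WT/WT of -0.74 whose interval, -2.31 to 0.56, included 0. Per endothelial cell, therefore, the Tek level was not separable between the genotypes at this depth. No Tek UMI was found in mural, myeloid or melanoma cells of either library. In 1751 and 1880 melanoma cells that absence allows a level of up to 0.153 and 0.148 CPM, the level of 3 counts.

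Fibroblasts were the only other class with Tek. It had 9 UMIs in 8 of 188 Atf4 WT/WT fibroblasts and 2 UMIs in 2 of 221 Atf4 Δ/Δ fibroblasts, or 12.5 and 2.26 CPM. The log2 ratio was -2.47 (-5.72 to -0.20). Of the 9 UMIs, 6 lay in the 58 fibroblasts with a UMI of Pi16, Clec3b or Dpp4, genes known from adventitial fibroblasts, and 3 in the other 130. Free RNA of the suspension, estimated from melanoma markers seen in the class, would give 0.0791 and 0.018 Tek UMIs to the fibroblasts. Endothelial markers in these fibroblasts summed to 118 and 88 CPM over the 9 genes of the gate, with Cldn5 at 0 in both, and to 82.2 and 170.4 CPM over the 9 genes held out, with Erg, Sox17, Cyyr1 and Robo4 at 0 in both. The marker lists thus differed in direction, and their part in the Tek counts was not tested.

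Tie1 kept more closely to the endothelium. It had 33 UMIs in 18 of 62 cells and 9 UMIs in 8 of 23 cells, levels of 143 CPM (98.3 to 201) and 105 CPM (47.9 to 199). The log2 ratio was -0.45 (-1.70 to 0.65), so for Tie1, too, the level per endothelial cell was not separable between genotypes. Outside the endothelial cells the 5 classes held 2 Tie1 UMIs in each library. Endothelial cells exceeded the next class, myeloid cells in Atf4 WT/WT and fibroblasts in Atf4 Δ/Δ tumours, by 8.74 (6.16 to 14.09) and 6.54 (3.68 to 11.99) on the log2 scale.

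Over all kept cells both receptors were lower in the Atf4 Δ/Δ library. Tek had 54 and 9 UMIs and Tie1 56 and 17, log2 ratios of -2.59 (-3.79 to -1.56) and -1.72 (-2.60 to -0.92). The share of endothelial cells among kept cells was lower as well, as given above. In the cells that passed both the endothelial and the mural gate Tek had 11 and 0 UMIs and Tie1 16 and 5. Those 10 and 5 cells had median depths of 13775 and 7104 UMIs, and 0 Tek UMIs there allows a level of up to 86.5 CPM, above the 78.8 CPM of the Atf4 WT/WT cells. Counted as endothelial, they took the log2 ratio of Tek to -1.04 and that of Tie1 to -0.19.

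Both receptors were counted in the same cells. Of 62 Atf4 WT/WT endothelial cells, 6 had a UMI of both Tek and Tie1, 14 of Tek alone, 12 of Tie1 alone and 30 of neither. Of the 23 Atf4 Δ/Δ cells, 3 had both and 12 had neither. After every cell was thinned to 2000 UMIs, which left out 17 and 8 shallower cells, Tek was seen in 15.6% (6.49 to 29.5) and 20% (4.33 to 48.1) of the endothelial cells and Tie1 in 22.2% (11.2 to 37.1) and 26.7% (7.79 to 55.1). In thinned melanoma cells each was seen in 0 of 1645 and 0 of 1778 cells, which allows up to 0.182% and 0.169% of cells with a UMI at this depth and does not limit the share of cells that express the gene.

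The ligands showed a different pattern. Angpt2, the angiopoietin of activated endothelium, had 20 UMIs in 13 of the 62 Atf4 WT/WT endothelial cells and 30 UMIs in 10 of the 23 Atf4 Δ/Δ endothelial cells. The levels were 86.6 CPM (52.9 to 134) and 349 CPM (235 to 498) and did not overlap in their intervals, and the log2 ratio was 2.01 (1.15 to 2.90). Angpt2 was the 1 member past 2-fold among the 4 with at least 20 UMIs in endothelial cells. Over all 2481 genes with that many UMIs there, 5.80% were at least 2-fold higher and 7.82% at least 2-fold lower in Atf4 Δ/Δ hosts, the median log2 ratio being -0.01.

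The counts by cell show what this rests on. In Atf4 WT/WT tumours 8 endothelial cells had 1 Angpt2 UMI, 3 had 2 and 2 had 3. In Atf4 Δ/Δ tumours 3 cells had 1 UMI, 3 had 2, 2 had 3, 1 had 4 and 1 had 11. Without the cell with the most UMIs in each library, an alternative added after the counts were seen, 17 and 19 UMIs were left, 74.6 and 244 CPM, and the log2 ratio was 1.71 (0.68 to 2.74). The higher level thus did not rest on a single cell, although all of it came from 10 cells of 1 library. After thinning to 2000 UMIs, Angpt2 was seen in 20% (9.58 to 34.6) and 33.3% (11.8 to 61.6) of the endothelial cells, with intervals that overlapped.

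**Figure D2:**
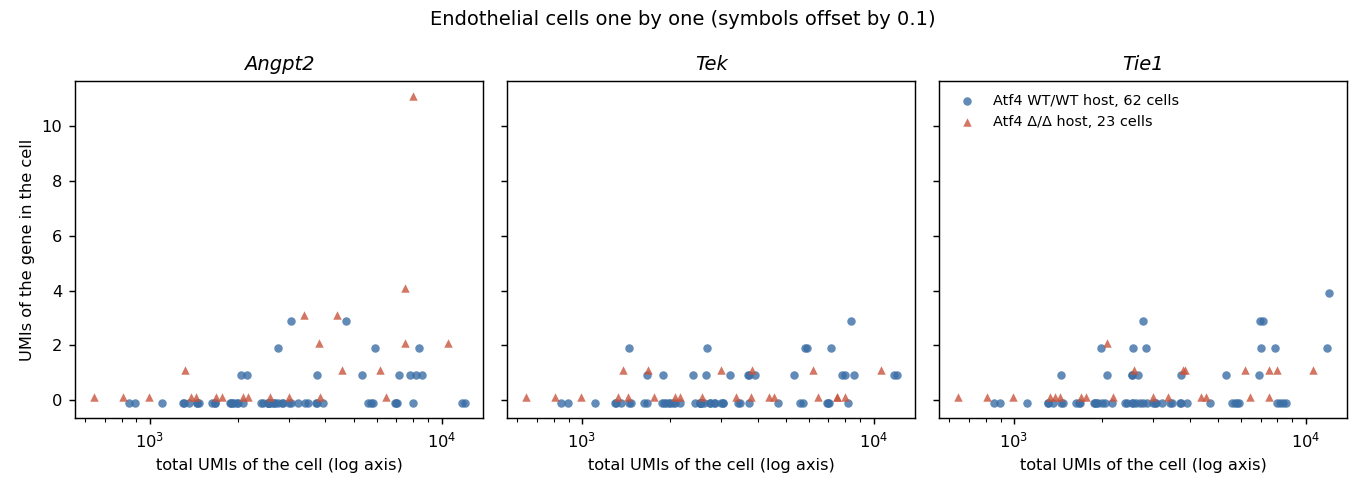
UMIs of Angpt2, Tek and Tie1 (vertical axis) in each endothelial cell against the total UMIs of that cell (horizontal logarithmic axis), circles for the 62 Atf4 WT/WT and triangles for the 23 Atf4 Δ/Δ cells. The highest Angpt2 count is 11 UMIs in an Atf4 Δ/Δ cell and 3 in Atf4 WT/WT cells, whereas the highest Tek and Tie1 counts, 3 and 4, lie in Atf4 WT/WT cells.

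The same direction was seen in a further set of cells and in a subset of the same endothelial cells. In the cells with markers of both endothelial and mural cells Angpt2 had 20 UMIs in 6 of 10 cells and 17 UMIs in 4 of 5 cells, or 143 CPM (87.5 to 221) and 490.3 CPM (286 to 785). In the subset, the Xist-only endothelial cells, the levels were 103 CPM (62.9 to 159) from 47 cells and 345 CPM (149 to 680.2) from 9 cells. These rested on 20 and 8 UMIs, and the 2 intervals overlapped. The 5 Y-only Atf4 Δ/Δ endothelial cells held 17 of the 30 UMIs, a level of 630.4 CPM (367 to 1009). The intervals of these Atf4 Δ/Δ sets overlapped, and the part of host sex in the Angpt2 level was not tested.

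Angpt2 was set beside the receptors cell by cell. Of the 10 Atf4 Δ/Δ endothelial cells with Angpt2, 2 also had a Tek UMI and 5 a Tie1 UMI. Of the 13 Atf4 WT/WT cells with Angpt2, 7 also had a Tek UMI and 3 a Tie1 UMI.

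Beyond the endothelium Angpt2 was a broad, low transcript of the tumour cells. Melanoma cells had 272 and 247 UMIs, in 244 of 1751 and 217 of 1880 cells, levels of 13.8 and 12.2 CPM whose log2 ratio was -0.18 (-0.43 to 0.07). Mcph1, the gene that overlaps Angpt2 on the other strand, had 309 and 247 UMIs in the same cells. Free RNA would give 6.45 and 7.69 Angpt2 UMIs, so that nearly all were seen beyond it. In endothelial cells the level exceeded that of melanoma cells, the next class, by 2.65 (1.91 to 3.30) and 4.84 (4.24 to 5.39) on the log2 scale.

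Angpt2 in myeloid cells went the other way from that in endothelial cells. It had 30 UMIs in 25 of 1390 Atf4 WT/WT cells and 7 UMIs in 7 of 1014 Atf4 Δ/Δ cells, 10 and 3.29 CPM, a log2 ratio of -1.61 (-3.04 to -0.39). It was the 1 member past 2-fold among the 3 with at least 20 UMIs in myeloid cells, where 2.74% of 9407 genes were at least 2-fold lower and 2.81% at least 2-fold higher. After thinning, 1.94% (1.01 to 3.37) and 0.459% (0.0556 to 1.65) of the myeloid cells had an Angpt2 UMI, and the intervals overlapped. The share in thinned fibroblasts, at 1.92% and 0.535%, was alike, at median depths of 3642.5 and 3732 UMIs against 1833 and 1772 in myeloid cells. Free RNA would give 3.44 and 2.2 of the myeloid UMIs. The myeloid shares were thus close to those of fibroblasts, while the myeloid UMIs exceeded the free RNA estimate in both libraries, and whether myeloid cells express Angpt2 cannot be told from these values.

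Angpt1, the Tie2 agonist, was found almost only in fibroblasts, and was rare there. Of the UMIs in kept cells, 75% and 78.6% lay in that class. It had 3 UMIs in 3 of 188 Atf4 WT/WT fibroblasts and 11 UMIs in 11 of 221 Atf4 Δ/Δ fibroblasts, with never more than 1 in a cell. The levels of 4.18 CPM (0.862 to 12.2) and 12.4 CPM (6.2 to 22.2) gave a log2 ratio of 1.57, whose interval of -0.35 to 4.05 included 0. No Angpt1 UMI was found in endothelial, mural or myeloid cells. Over all kept cells it had 4 and 14 UMIs, a log2 ratio of 1.81 (0.13 to 3.87). In the 4 and 7 mural cells, the class best known for this ligand, 0 UMIs allow levels of up to 192 and 155 CPM, so that a level far above that of fibroblasts could have been missed.

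Ligands and receptors can be set side by side in the whole tumour. Over all kept cells Angpt2 had 363 and 318 UMIs, a log2 ratio of -0.19 (-0.41 to 0.03), while Tek and Tie1 were at -2.59 and -1.72. Angpt1, with only 4 and 14 UMIs, was at 1.81 (0.13 to 3.87). The plot of genotype ratios sets out each class with more than 3 UMIs in at least 1 library.

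**Figure D3:**
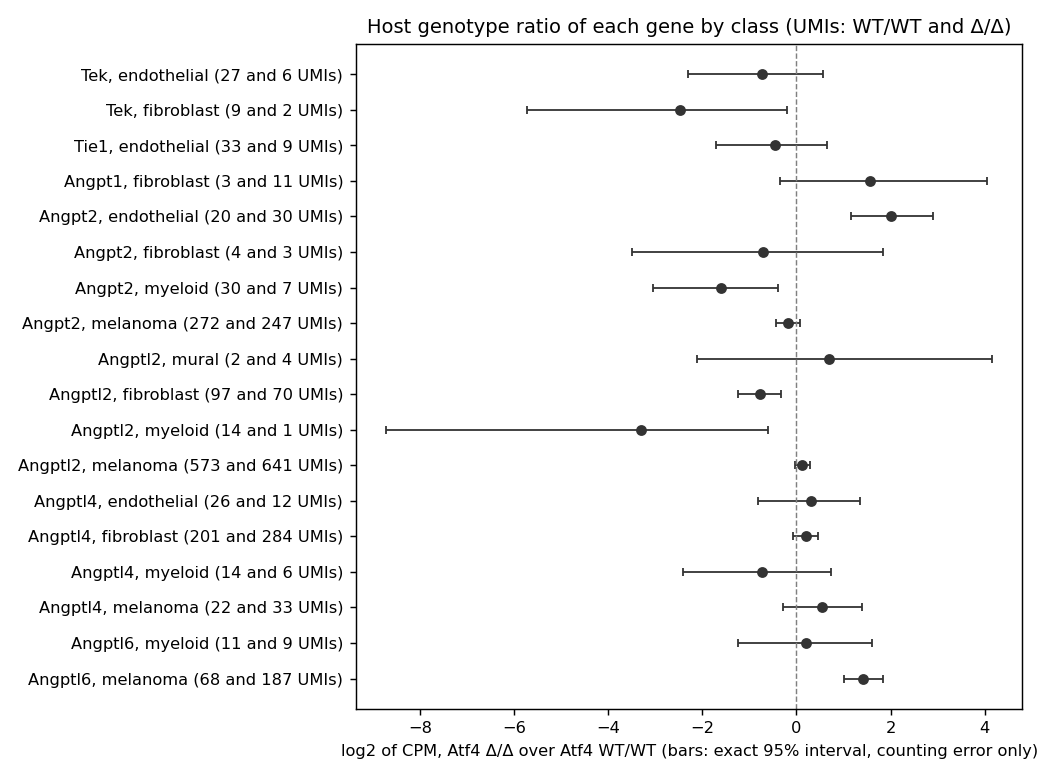
Log2 ratio of CPM in Atf4 Δ/Δ over Atf4 WT/WT tumours (horizontal axis) for each gene and class with a ratio, bars for the exact 95% interval and UMIs of the libraries in the row names. The interval lies above 0 for Angpt2 in endothelial cells (2.01) and Angptl6 in melanoma cells (1.42) and below 0 for Tek (-2.47) and Angptl2 (-0.77) in fibroblasts and for Angpt2 (-1.61) and Angptl2 (-3.31) in myeloid cells, which rest on 7 or fewer UMIs in the Atf4 Δ/Δ library.

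Of 17 genes for partners and signalling of the Tie receptors, 8 had at least 20 UMIs in endothelial cells, with a median log2 ratio of 0.17. At least 2-fold higher was 1 of them, Foxo1, the transcription factor that Tie2 signalling keeps out of the nucleus and that drives Angpt2, at 13 and 10 UMIs and 1.05 (-0.30 to 2.35). At least 2-fold lower were 2, Ptk2, the focal adhesion kinase, at -1.57 (-3.95 to 0.15), and Itga5, an integrin subunit, at -1.74 (-4.90 to 0.32), and all 3 intervals included 0. Over all 2481 genes with that many UMIs there, 5.80% were at least 2-fold higher and 7.82% at least 2-fold lower. Ptprb, the endothelial phosphatase that dephosphorylates Tie2, had 264 and 337 CPM. Akt1, a kinase below Tie2, had 164 and 163 CPM.

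Endothelial tip cells, which lead new sprouts, are also known for Angpt2. Of 7 genes of these cells, 6 had at least 20 UMIs in endothelial cells, with a median log2 ratio of 0.13, and 1 was past 2-fold. Over all 2481 genes with that many UMIs there, 5.80% were at least 2-fold higher and 7.82% at least 2-fold lower. Apln, which encodes the peptide apelin, was the tip cell gene past 2-fold, at 195 and 442 CPM and a ratio of 1.18 (0.52 to 1.84). Esm1 had 199 and 233 CPM and Dll4 195 and 151 CPM. Among hypoxia targets 3 of 12 had at least 20 UMIs in endothelial cells and 0 were past 2-fold.

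The angiopoietin-like genes were spread over stroma and tumour. Angptl4 was the most abundant of the 7 in fibroblasts, with 201 UMIs in 104 of 188 Atf4 WT/WT and 284 UMIs in 114 of 221 Atf4 Δ/Δ fibroblasts. The levels were 279.9 CPM (243 to 321) and 320.5 CPM (284 to 360.0), and the log2 ratio of 0.20 (-0.07 to 0.46) included 0. Of the members, 2 had at least 20 UMIs in fibroblasts, Angptl4 and Angptl2, and 0 were past 2-fold, where 5.21% of 7174 genes were at least 2-fold higher and 6.22% at least 2-fold lower. Fibroblasts exceeded endothelial cells, the next class, by 1.31 (0.72 to 1.96) and 1.20 (0.37 to 2.17) on the log2 scale.

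The Angptl4 counts of fibroblasts were also read cell by cell. At 4 or more Angptl4 UMIs there were 13 Atf4 WT/WT and 22 Atf4 Δ/Δ fibroblasts, with a highest count of 8 and 13. At least 1 UMI was seen in 55.3% and 51.6% of the fibroblasts, and a difference in spread was not tested. Fibroblasts of each library were then ordered by the share of their UMIs from 12 hypoxia targets, a list without Angptl4, and cut into tertiles. In Atf4 WT/WT tumours the Angptl4 level from the lowest to the highest tertile was 283, 224 and 337 CPM, and the highest over the lowest was 0.25 (-0.24 to 0.75) on the log2 scale. In Atf4 Δ/Δ tumours it was 161, 247 and 554 CPM, a log2 ratio of 1.79 (1.31 to 2.29).

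Angptl4 was thus higher where the hypoxia targets were higher among Atf4 Δ/Δ fibroblasts, while the interval for Atf4 WT/WT fibroblasts included 0. The difference between these slopes was not tested. The genotype ratio turned from -0.82 (-1.40 to -0.24) in the lowest tertile through 0.14 (-0.37 to 0.66) to 0.72 (0.33 to 1.12) in the highest. The tertiles did not reach the same range, since the hypoxia targets summed to 566, 1304 and 4836 CPM in Atf4 WT/WT and to 1229, 3135 and 8744 CPM in Atf4 Δ/Δ fibroblasts. Median depths were alike, between 3052 and 3810.5 UMIs. The lowest Atf4 Δ/Δ tertile and the middle Atf4 WT/WT tertile, close in hypoxia targets, had 161 and 224 CPM of Angptl4.

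**Figure D4:**
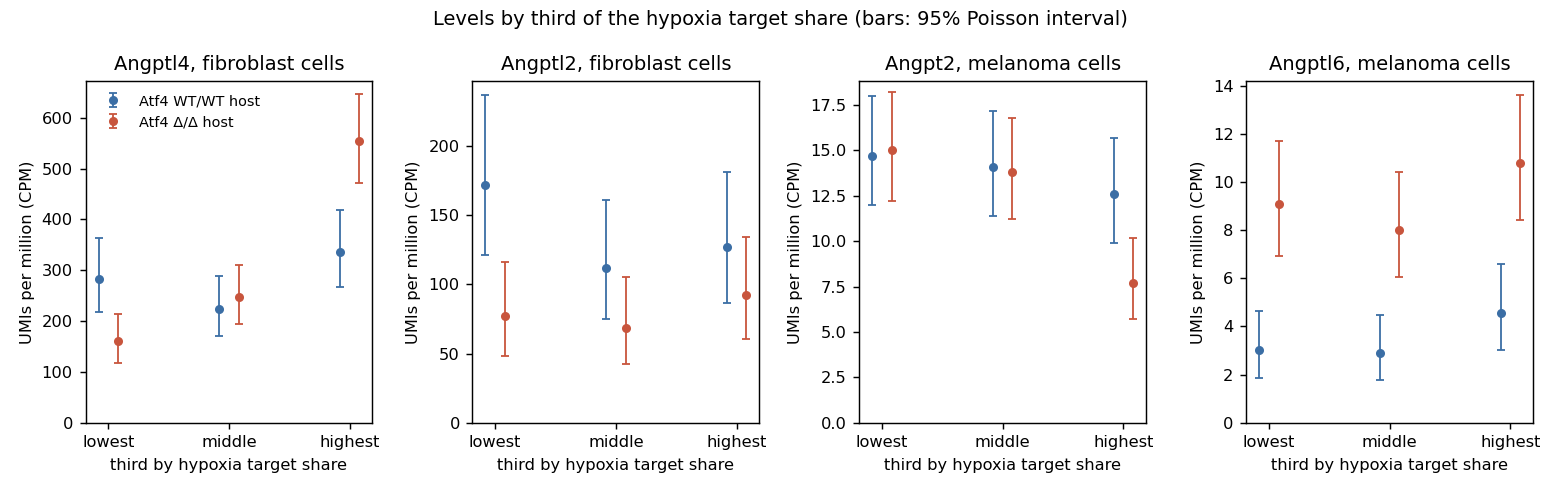
Level in CPM (vertical axis, from 0) in the lowest, middle and highest tertile of cells by the share of UMIs from hypoxia targets, with 95% Poisson intervals, for Angptl4 and Angptl2 in fibroblasts and Angpt2 and Angptl6 in melanoma cells. Angptl4 reaches 554 CPM in the highest tertile of Atf4 Δ/Δ fibroblasts from 161 CPM in the lowest, and Angptl6 is higher in Atf4 Δ/Δ tumours in each tertile.

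The hypoxia targets themselves were higher in Atf4 Δ/Δ fibroblasts. Of 11 with at least 20 UMIs, 6 were at least 2-fold higher and 0 lower, with a median log2 ratio of 1.25 against -0.05 over all genes. Over the 7174 genes with that many UMIs there, 5.21% were at least 2-fold higher and 6.22% at least 2-fold lower. Ndrg1 had 109 and 349 CPM and Slc2a1, the glucose transporter GLUT1, 89.1 and 240.4 CPM. In myeloid cells all 12 had at least 20 UMIs, of which 4 were at least 2-fold higher and 0 lower, with a median of 0.73. The shares over 9407 genes there were 2.81% higher and 2.74% lower. In melanoma cells 0 of 12 were past 2-fold, with a median of 0.14, where 3.45% of 12216 genes were higher and 1.08% lower by that much.

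In Xist-only fibroblasts the Angptl4 level was 292 CPM (250.5 to 339) from 149 cells and 215 CPM (154 to 291) from 57 cells, a log2 ratio of -0.44. In the 47 Y-only Atf4 Δ/Δ fibroblasts it was 356 CPM (287 to 437). The genotype ratio of the mean thus differed in sign between all fibroblasts and the Xist-only ones, and the part of host sex in it was not tested.

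In endothelial cells Angptl4 had 26 UMIs in 18 of 62 and 12 UMIs in 6 of 23 cells, 113 CPM (73.5 to 165) and 139.6 CPM (72.1 to 244), a log2 ratio of 0.31 (-0.81 to 1.35). Myeloid and melanoma cells had little: 14 and 6 UMIs in myeloid cells (-0.73, -2.40 to 0.74) and 22 and 33 in melanoma cells (0.55, -0.28 to 1.39). Free RNA alone would give 2.94 and 2.64 of the myeloid and 5.51 and 9.21 of the melanoma UMIs. Melanoma cells thus held 7.1% and 8.66% of the Angptl4 UMIs in kept cells, and their highest hypoxia tertile held 6 and 9 UMIs.

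Lipoprotein lipase, the enzyme that ANGPTL4 inhibits, is encoded by Lpl, and its transcript was much lower in Atf4 Δ/Δ stroma. It had 577 and 129.8 CPM in fibroblasts, a log2 ratio of -2.15 (-2.46 to -1.85), and 982 and 304 CPM in myeloid cells, -1.69 (-1.81 to -1.57). Gpihbp1, which holds the lipase on the capillary wall, had 1749 and 2524 CPM in endothelial cells (0.53, 0.28 to 0.77). In fibroblasts, therefore, Lpl was lower in the Atf4 Δ/Δ library, while the interval for Angptl4 included 0.

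Of the 6 partner genes of the angiopoietin-like proteins, 3 had at least 20 UMIs in fibroblasts, of which Lpl was at least 2-fold lower and 1 at least 2-fold higher. The latter was Sdc4, a cell surface proteoglycan, at 148 and 306 CPM, 1.05 (0.72 to 1.39). PPAR transcription factors are known to induce Angptl4. Of 8 other PPAR targets, 5 had at least 20 UMIs in fibroblasts and 0 were past 2-fold. In myeloid cells 1 of 6 was, Fabp4, the fatty acid binding protein, at 396 and 159 CPM, -1.31 (-1.49 to -1.14). Over all genes with at least 20 UMIs in fibroblasts, 5.21% were at least 2-fold higher and 6.22% at least 2-fold lower. In myeloid cells these shares were 2.81% and 2.74%.

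Angptl2 had the most UMIs of the 7, 730 and 767 in kept cells, and melanoma cells held 78.5% and 83.6% of them. In fibroblasts it had 97 UMIs in 63 of 188 cells and 70 UMIs in 48 of 221 cells, levels of 135 CPM (109.6 to 165) and 79 CPM (61.6 to 99.8). The log2 ratio was -0.77 (-1.24 to -0.32), lower in Atf4 Δ/Δ hosts but short of 2-fold. Among Xist-only fibroblasts it was 118 CPM (92 to 149) and 47.1 CPM (21.5 to 89.4), a log2 ratio of -1.32. In Y-only Atf4 Δ/Δ fibroblasts it was 96.7 CPM (62.6 to 143). The study itself used Angptl2 as a marker of its vascular cancer-associated fibroblasts (vCAFs), so it is no independent reading of those cells. No gate used it here.

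The lower Angptl2 level was seen in each fibroblast subset, with intervals that did not always leave out 0. From the lowest to the highest hypoxia tertile the genotype ratio was -1.16 (-1.99 to -0.36), -0.71 (-1.59 to 0.15) and -0.46 (-1.26 to 0.33). With a UMI of Pi16, Clec3b or Dpp4 it was -1.15 (-2.15 to -0.21), and in the other fibroblasts -0.66 (-1.20 to -0.12). After thinning, 21.2% (15 to 28.4) and 12.8% (8.4 to 18.5) of the fibroblasts had an Angptl2 UMI. The few mural cells had 2 and 4 UMIs, as high a level as fibroblasts within its wide interval.

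Melanoma cells had 573 and 641 Angptl2 UMIs, in 464 and 492 cells, at 29.1 CPM (26.8 to 31.6) and 31.7 CPM (29.3 to 34.3). The log2 ratio of 0.12 (-0.04 to 0.29) included 0. In myeloid cells it had 14 and 1 UMIs, a ratio of -3.31 (-8.72 to -0.60), but free RNA alone would give 6.93 and 5.31. The UMIs seen were thus above this estimate in the Atf4 WT/WT and below it in the Atf4 Δ/Δ library, and the ratio rests on counts too low to set apart from free RNA. Among the genes listed as partners of the angiopoietin-like proteins, Pirb had 145 and 204 CPM in myeloid cells (0.49, 0.30 to 0.69). Lilrb4a had 27.4 and 24 CPM there.

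Angptl6 was the member that differed in the tumour cells themselves. In melanoma cells it had 68 UMIs in 66 of 1751 cells and 187 UMIs in 148 of 1880 cells. The levels were 3.46 CPM (2.69 to 4.38) and 9.25 CPM (7.97 to 10.7), a log2 ratio of 1.42 (1.01 to 1.84). It was the 1 member past 2-fold among the 4 with at least 20 UMIs there, where 3.45% of 12216 genes were at least 2-fold higher and 1.08% at least 2-fold lower in Atf4 Δ/Δ tumours. Without the cell with the most UMIs in each library the ratio was 1.43. After thinning, 0.973% (0.557 to 1.57) and 2.31% (1.66 to 3.12) of melanoma cells had a UMI, and 0 of 156 and 0 of 187 thinned fibroblasts had one, which allows up to 1.92% and 1.6% of cells with a UMI. A230050P20Rik, on the other strand, had 2 and 9 UMIs in melanoma cells.

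Free RNA would give 1.47 and 6.45 of the Angptl6 UMIs of melanoma cells. In myeloid cells it had 11 and 9 UMIs, 3.67 and 4.23 CPM, and endothelial cells had 0 and 1. The higher level was spread over the hypoxia tertiles, with genotype ratios of 1.59 (0.84 to 2.40), 1.46 (0.71 to 2.28) and 1.24 (0.59 to 1.93). It was not spread evenly over the cells. No Atf4 WT/WT melanoma cell had more than 2 Angptl6 UMIs, whereas 9 Atf4 Δ/Δ cells had 3 and 2 had 4. Among kept cells that passed no gate, Angptl6 had 3 UMIs in 3 of 269 Atf4 WT/WT cells and 64 UMIs in 44 of 301 Atf4 Δ/Δ cells, 7.4 CPM (1.53 to 21.6) and 49.4 CPM (38 to 63).

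A split of the melanoma cells was added after these values were seen. Nupr1 and Atf5, both known as stress genes downstream of ATF4, had 93.8 and 449.6 CPM and 61.7 and 176 CPM in the cells that passed no gate. They were also higher in melanoma cells of Atf4 Δ/Δ hosts, at 19.6 and 104 CPM for Nupr1 and 13.5 and 51.9 CPM for Atf5. In Atf4 Δ/Δ tumours the Angptl6 level was 18.9 CPM (16 to 22.2) in the 715 melanoma cells with a Nupr1 UMI and 2.87 CPM (2 to 4) in the 1165 without, a log2 ratio of 2.72 (2.18 to 3.29). In Atf4 WT/WT tumours it was 3.65 CPM (1.67 to 6.93) in 222 cells with and 3.43 CPM (2.61 to 4.42) in 1529 cells without. The genotype ratio was 2.37 (1.41 to 3.53) with a Nupr1 UMI and -0.26 (-0.90 to 0.37) without.

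A split by Atf5 gave like values, with an Angptl6 level of 22.1 and 2.88 CPM with and without an Atf5 UMI in Atf4 Δ/Δ tumours and of 5.1 and 3.23 CPM in Atf4 WT/WT tumours. Median depths of the Nupr1 split in the Atf4 Δ/Δ library were alike, at 10901 UMIs with and 10638 without. With every melanoma cell thinned to 2000 UMIs before the split, Angptl6 was seen in 7.27% (4.5 to 11) of Atf4 Δ/Δ cells with Nupr1 and 0.931% (0.51 to 1.56) without. The same shares in Atf4 WT/WT tumours were 0 of 61 (interval of 0 to 5.87%) and 0.821% (0.438 to 1.4). Both with and without a Nupr1 UMI, the thinned intervals thus overlapped between the genotypes. After thinning, the split by Atf5 gave 4.44% (0.543 to 15.1) of Atf4 WT/WT and 5.41% (2.62 to 9.72) of Atf4 Δ/Δ cells with an Atf5 UMI, and 0.688% (0.344 to 1.23) and 1.51% (0.968 to 2.23) of those without. These intervals overlapped between the genotypes both with and without an Atf5 UMI. Thinning cut the Atf4 Δ/Δ cells with an Atf5 UMI from 585 to 185, and cells that lost theirs were counted as without. At full depth the genotype ratio of Angptl6 without an Atf5 UMI was -0.17 (-0.79 to 0.45). The thinned shares therefore cannot tell whether the genotype difference was confined to cells with an Atf5 UMI.

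Angpt2 and Angptl2 were not higher in Atf4 Δ/Δ melanoma cells with a Nupr1 or Atf5 UMI. With over without a Nupr1 UMI the log2 ratio in Atf4 Δ/Δ melanoma cells was -0.38 (-0.78 to 0.01) for Angpt2 and -0.20 (-0.44 to 0.04) for Angptl2. For Angptl4 it was 0.86 (-0.21 to 1.96) at 18 and 15 UMIs, and in Atf4 WT/WT melanoma cells 1.70 (0.17 to 3.09) at 7 and 15 UMIs. With over without an Atf5 UMI, Atf4 Δ/Δ melanoma cells had -0.32 (-0.74 to 0.08) for Angpt2 and -0.35 (-0.61 to -0.10) for Angptl2. The genotype ratio of Angpt2 was -0.74 (-1.31 to -0.14) with an Atf5 UMI and -0.03 (-0.32 to 0.26) without. In the cells that passed no gate Angptl6 had 61.3 CPM with and 19.1 CPM without a Nupr1 UMI in the Atf4 Δ/Δ library, at median depths of 6797 and 1049 UMIs. Grb14, a Tie2 adaptor, was the 1 of 14 Tie partner genes past 2-fold in melanoma cells, at 16 and 311 UMIs, 4.24 (3.52 to 5.07), in cells without a Tek UMI. Over all 12216 genes with at least 20 UMIs there, 3.45% were at least 2-fold higher and 1.08% at least 2-fold lower.

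**Figure D5:**
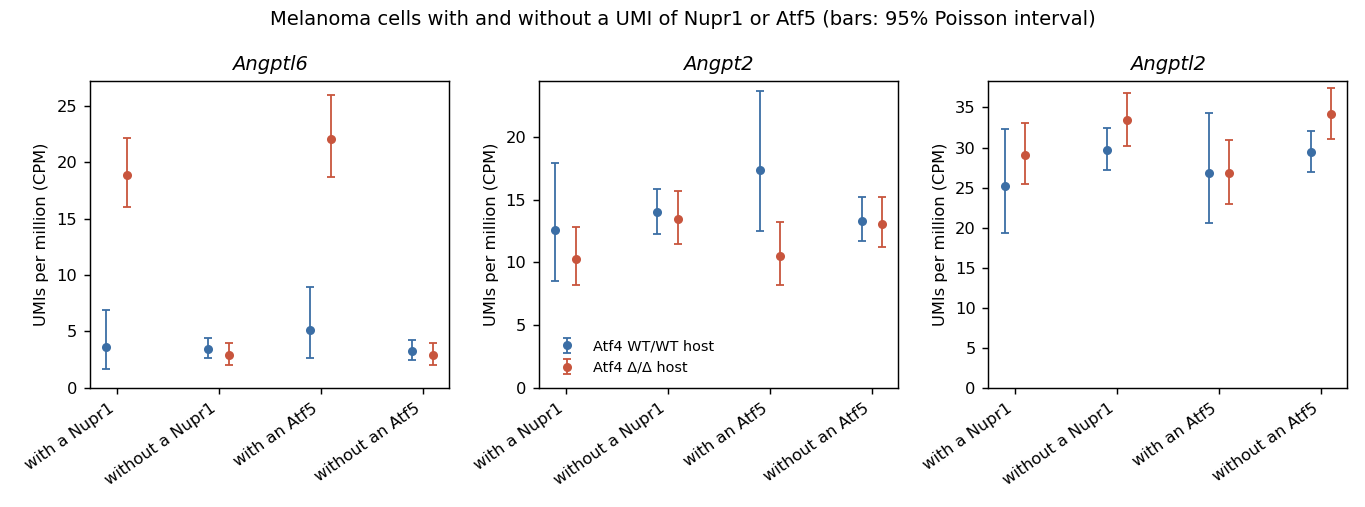
Level in CPM (vertical axis, from 0) of Angptl6, Angpt2 and Angptl2 in melanoma cells with and without a UMI of Nupr1 or Atf5, by host genotype, with 95% Poisson intervals. Angptl6 stands at 18.9 and 22.1 CPM in Atf4 Δ/Δ cells with a Nupr1 or Atf5 UMI and between 2.87 and 5.1 CPM in every other set of cells, and Angpt2 and Angptl2 show no such gap.

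The promoter of Angptl6 is shown because the 2 genes that marked these cells are known ATF4 targets. The 250 bases before the RefSeq start of the gene (GRCm38.p6, minus strand, chr9:20879711-20879960) read as follows, 5′ to 3′.
Angptl6: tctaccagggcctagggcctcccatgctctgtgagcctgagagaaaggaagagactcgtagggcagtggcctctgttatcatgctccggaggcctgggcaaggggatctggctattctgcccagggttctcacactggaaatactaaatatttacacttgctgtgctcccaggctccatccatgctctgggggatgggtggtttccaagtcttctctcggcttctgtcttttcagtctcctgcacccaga
The window was searched on both strands for TGATGNAA (the core of the C/EBP-ATF response element), ACGTG (hypoxia response core), the PPAR direct repeat and CCGGAA (ETS core). None of these was in the window, hence no base is in capitals. Bases outside the window were not searched, and control of Angptl6 by ATF4 was not tested. Among 32851 promoter windows of the same length, 3.45% held the first, 16.6% the second and 0.0335% the third, and 3952 windows held the last. Tek, Tie1 and Angptl2 also had a promoter entry, 4 of 7 members in all, and no match of these letters.

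Angpt2 in melanoma cells differed with the hypoxia targets. In Atf4 Δ/Δ tumours its level was 15, 13.8 and 7.71 CPM from the lowest to the highest hypoxia tertile, a log2 ratio of highest over lowest of -0.96 (-1.48 to -0.45). In Atf4 WT/WT tumours it was 14.7, 14.1 and 12.6 CPM, -0.23 (-0.68 to 0.22). The genotype ratio was -0.71 (-1.25 to -0.17) in the highest tertile and 0.02 (-0.40 to 0.44) in the lowest. The hypoxia targets of the highest tertiles were close, at 8314 and 8438 CPM. Angptl2 went the other way in Atf4 Δ/Δ melanoma cells, with 29.2 CPM in the lowest and 37.2 CPM in the highest tertile, 0.35 (0.07 to 0.63).

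The genes with the pattern most like that of a member were found over 10 profiles, the 5 classes in both libraries, among 9873 genes with at least 200 UMIs. On a scale of log2(CPM + 10), they were Gfod1, Pitpnm2 and Ptprk for Angpt2 (Pearson r of 0.980, 0.978 and 0.977) and Serf1, Bcat1 and 1810055G02Rik for Angptl2 (0.975, 0.961 and 0.958). For Angptl4 they included Nxn and Pmepa1 (0.944 and 0.941), and for Angptl6 they were Lrrc61, Herc3 and Tsga10 (0.939, 0.939 and 0.924). The profiles share libraries and differ in depth, and with another pseudocount at most 1 of each set of 3 stayed, so the names are a description only.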

How the data were processed

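Single cells of small B16F10 tumours were profiled on the 10x 3′ platform, with 1 library for each host genotype. Per the labels, the authors aligned reads to the mouse genome and counted them with Cell Ranger 3.1.0, and they deposited raw UMI counts per gene and barcode, not normalised. The study's own limits on cells were applied (200 to 5000 genes, and no more than 7.5% of UMIs from mitochondrial genes). Classes required at least 3 gate markers and a marker level cut placed in the valley of the marker distributions, without the 7 genes. Cells that passed 2 gates were set apart, except that mural was taken before fibroblast. Called doublets (94 and 55 kept cells) stayed in and were left out as an alternative. UMIs were summed per class and divided by the class total to give CPM. Intervals are exact Poisson (levels), exact conditional binomial (ratios) and Clopper-Pearson (shares). Shares were compared after thinning each cell to 2000 UMIs. PCR duplicates are removed by UMIs, but intervals and the floor of 3 counts cover counting error only. No p-value was computed, since a genotype had 1 library.

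The free RNA expected in a class took all melanoma gate marker UMIs of that class (myeloid ones for melanoma cells) as free RNA with the profile of the kept cells. The scripts were tested on simulated counts. Named genes were the 7 members, up to 4 genes per list and class past 2-fold, taken by UMI count, the 3 genes most like each member with at least 50 UMIs, and Atf4. Some items are not reported here. Ptprb, Akt1, Esm1, Dll4, Gpihbp1, Pirb, Lilrb4a, Nupr1 and Atf5 were named after their values were seen. The members and the lists were chosen with earlier results of these data known. The alternatives with endothelial cells that carried mural markers, without the cell with most UMIs, and with the split by Nupr1 or Atf5 were added after the data were seen. Promoter letters came from RefSeq (GRCm38.p6). Python 3.11.15, scanpy 1.11.5, scipy 1.17.1 and edgeR 4.0.16 (TMM scaling only) were used.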

Additional observations from a re-analysis of the deposited data

Results flagged for a closer look

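Angpt2 was lower in the Atf4 Δ/Δ library in myeloid cells (log2 ratio of -1.61) and higher in endothelial cells (2.01). The difference between these ratios was not tested, and the share of myeloid cells with an Angpt2 UMI was close to that of fibroblasts.

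Members also had UMIs in cells outside the classes. In kept cells that passed no gate, both libraries together, Angpt2 had 5 UMIs, Angptl2 23, Angptl4 14 and Angptl6 67. In barcodes that failed the cell filters, Angpt2 had 376 UMIs, Tek 10, Tie1 33, Angptl2 730, Angptl4 133 and Angptl6 179. Of the Angptl6 UMIs there, 39 lay in the Atf4 WT/WT and 140 in the Atf4 Δ/Δ library.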

How the results depend on the processing

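Over the alternatives run, 107 values of the 10 ratios named in advance moved by less than their counting interval and 2 moved further. Both came from the Xist-only cells, where the log2 ratio in fibroblasts was -1.32 for Angptl2 (-0.77 in all fibroblasts) and -0.44 for Angptl4 (0.20). The cause was not tested. The 99 values of the other ratios stayed within their intervals. No ratio whose interval left out 0 changed sign. Among those whose interval included 0, the sign also changed for Angpt2 in fibroblasts (0.66, Xist-only), Angptl2 in mural cells (-0.86, gate of at least 2 markers), Angptl4 in myeloid cells (0.46, Xist-only, and 0.05, classes by clusters), Angptl4 in melanoma cells (-0.08, cells weighted equally, and -0.09, mitochondrial limit of 15%) and Angptl6 in myeloid cells (-0.02, free RNA subtracted, and -0.04, mitochondrial limit of 15%). In the Xist-only cells Tek in fibroblasts (8 and 0 UMIs), Angptl2 in myeloid cells (9 and 0) and Angptl6 in myeloid cells (9 and 0) gave no ratio, nor did Angpt1 in mural cells under any setting. Of the levels, 40 values moved beyond their interval and 646 stayed. No paired analysis was possible because there was a single library on each side. Depth limits the endothelial values (62 and 23 cells) and leaves the mural ones (4 and 7 cells) unread.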
